A study of Mus musculus with 6 samples.

Results

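The S100 family consists of small EF-hand proteins, nearly all of them calcium-binding, that occur only in vertebrates. Each carries a pair of EF-hand loops, most form dimers, and in most of them calcium exposes a surface that binds a partner protein. S100A10 is an exception, since its loops do not bind calcium and it joins annexin A2 without it. In muscle tissue the family is divided between cell types. *S100a1* is the member of muscle fibers, *S100a4*, *S100a6*, *S100a10* and *S100a11* are found in connective tissue cells and many other cells, *S100b* marks Schwann cells and is also made by fat and cartilage cells, and *S100a8* and *S100a9* encode calprotectin, the main cytosolic protein of neutrophils.

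Described here are 9 of these genes, *S100a1*, *S100a4*, *S100a6*, *S100a8*, *S100a9*, *S100a10*, *S100a11*, *S100a13* and *S100b*, out of 23997 gene symbols listed for each library. They were picked by name and selected on earlier results for these same mice, in which *S100a8* and *S100a9* differed between genotypes. Their difference between genotypes is therefore given as a description without a test, and tests are kept for genes outside the 9. Gastrocnemius muscle, the large muscle of the calf, came from 3 HrasG12V mice (2276, 2278 and 2279) and 3 wild-type (WT) littermates (2277, 2280 and 2281), all 21 days old and untreated. HrasG12V mice are Caggs-Cre+/HrasG12V/+, with Cre driven by the broadly active CAG promoter and the mutant allele under the promoter of *Hras* itself, so that the change is not limited to muscle fibers. WT mice are Caggs-Cre-/HrasflG12V/+, which means that they carry the same floxed allele without Cre, and both genotypes share a mixed background of SWR/J, 129S1/SvImJ and C57BL/6J. Polyadenylated RNA was sequenced in 1 library per mouse, and the values are FPKM, mapped fragments scaled to transcript length and to sequencing depth, with libraries scaled to each other by the authors.

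Facts of the libraries that touch the S100 values come first. The sum of FPKM was 814013 in HrasG12V mouse 2276 against 413020 to 547122 in the other 5 libraries, while the median of the 13359 genes with a mean of at least 0.5 FPKM lay between 6.39 and 6.64 in all 6. Genes of B and T cells summed to 92.4 and 81.9 FPKM in HrasG12V mice 2278 and 2279. The same sum was 2.32 FPKM in mouse 2276, and the WT mice had 1.29 to 1.62 FPKM. Of 7 skeletal muscle fiber genes, *Des* and *Mb* were above 500 FPKM in each library, but *Acta1* and *Myh4*, which fast muscle fibers use in quantity, were listed at 0 in all 6, so a listed 0 can be a failed estimate. *Tnnt3* was listed at 0 in mouse 2276 alone and was at 6893 FPKM or more in the others. *Ckm* was at 7165 FPKM in mouse 2278 and at 0 in the others, and *Myh1* was at 0 in WT mice 2277 and 2280. Such values enter the FPKM totals to which libraries are rescaled below. No read counts were used here, and the number of reads behind each FPKM was not recovered.

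**Figure D1:**
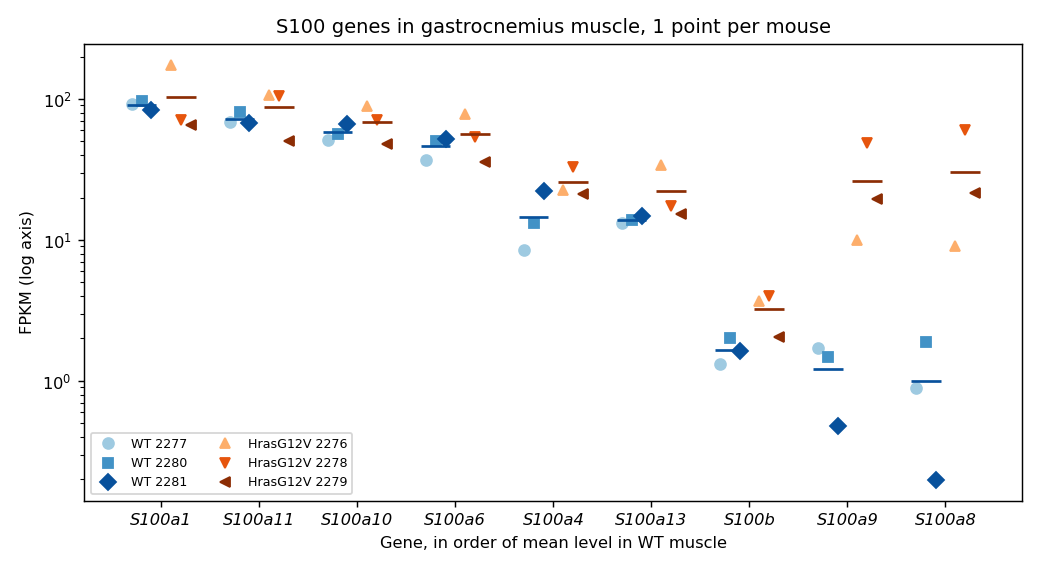
FPKM of the 9 S100 genes (log axis) in each of the 6 muscles, with genes in order of their mean in WT muscle. Blue points are the 3 WT mice, orange and brown points the 3 HrasG12V mice, and short lines the group means. *S100a8* and *S100a9* are lowest in WT muscle and higher in every HrasG12V mouse, while for *S100a1* the WT mice lie between HrasG12V mouse 2276 and the other two.

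Of the 9 genes, 8 lie on chromosome 3 in 2 groups. In the GENCODE vM21 annotation of GRCm38 the first runs from *S100a1*, which starts at 90511034, to *S100a9*, which ends at 90695721, a stretch of 184688 bases with 12 S100 genes. *S100a11* (93520488 to 93526287) and *S100a10* (93555080 to 93564643) form the second. *S100b* lies apart, on chromosome 10 from 76253853 to 76261159. *S100a8* (90668978 to 90670035, plus strand) and *S100a9* (90692632 to 90695721, minus strand) face each other across 22596 bases. *S100a1* (minus strand) and *S100a13* (plus strand) point away from each other, with 42 bases between their annotated starts. The longest annotated transcripts of the 9 genes have 486 (*S100a8*) to 1484 bases (*S100b*), and those of the 8 genes on chromosome 3 at most 731, so that their FPKM rest on few mapped positions. An exon of *S100a4* overlaps *Gm42674* on the same strand, and the other 8 genes share no exon bases with another gene.

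The DNA in front of the genes is shown for the pair that moved together and for the pair that shares a start region. RefSeq promoter windows (250 bases before to 50 after a start, build GRCm38.p6) were found for 8 of the 9 genes, all but *S100a10*. The windows of *S100a8* and *S100a9* hold 4 and 2 CpG dinucleotides, against a median of 7 over 32817 windows. Those of *S100a4*, *S100b* and *S100a6* are also below the median, with 2, 3 and 6. The windows of *S100a1*, *S100a13* and *S100a11* hold 11, 14 and 15. The letters TATAAA, read on both strands, were found in the windows of *S100a4*, *S100a8* and *S100a9* and in 13.6% of all windows. Letters bound by PU.1, a transcription factor of myeloid cells, were searched as GAGGAA on both strands and occurred in 28.3% of windows, 2 times in that of *S100a8*, 1 time each in those of *S100a4* and *S100a11* and 0 times in that of *S100a9*. Letters bound by C/EBP factors, which act in the same cells, were searched as TTGCNNAA or its reverse and occurred in 10.8% of windows, among the 8 in that of *S100a9* alone. Letters bound by Sp1, searched as CCGCCC on both strands, occurred in 35.6% of windows and among the 8 in those of *S100a9* and *S100a11*. A match is a description of letters and does not show a bound site. The runs below end just before the first annotated start and are printed 5′ to 3′ along the gene, with PU.1 or C/EBP letters in capitals. The other PU.1 match of *S100a8* and the TATAAA of both windows lie outside the printed runs.
S100a8, chr3:90668821-90668977, plus strand: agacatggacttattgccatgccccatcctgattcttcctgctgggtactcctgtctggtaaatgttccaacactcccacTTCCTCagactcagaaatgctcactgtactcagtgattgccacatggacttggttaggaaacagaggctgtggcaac
S100a9, chr3:90695722-90695971, minus strand: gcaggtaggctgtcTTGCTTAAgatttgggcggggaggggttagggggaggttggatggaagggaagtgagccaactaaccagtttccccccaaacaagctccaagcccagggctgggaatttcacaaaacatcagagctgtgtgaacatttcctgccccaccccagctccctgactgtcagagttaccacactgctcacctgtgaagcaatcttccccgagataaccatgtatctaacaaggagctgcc
Between S100a1 and S100a13, chr3:90514393-90514434, plus strand, all 42 bases: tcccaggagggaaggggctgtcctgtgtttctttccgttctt

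In WT muscle the 9 genes spanned a range from 0.991 to 90.5 FPKM, a scale that takes transcript length into account. *S100a1*, which binds the ryanodine receptor and the calcium pump of the sarcoplasmic reticulum, was highest at 90.5 ± 6.65 FPKM (SD, n = 3). It was followed by *S100a11* (72.3 ± 7.09) and *S100a10* (58.0 ± 8.08), which bind annexins at membranes, and by *S100a6* (46.6 ± 8.24), known as calcyclin. *S100a4*, which binds nonmuscle myosin and marks a subset of fibroblasts, was at 14.6 ± 6.92 FPKM and *S100a13*, which takes part in the export of FGF1, at 13.9 ± 0.795. *S100b* was at 1.65 ± 0.344, *S100a9* at 1.22 ± 0.653 and *S100a8* at 0.991 ± 0.850 FPKM. Within this order the ranges of the 3 WT mice overlapped between *S100a10* and *S100a6*, between *S100a4* and *S100a13*, between *S100b* and *S100a9* and between *S100a9* and *S100a8*, and not between the other neighbours. The steadiest gene was *S100a13*, whose highest WT value was 1.12 times its lowest. The ratio was 1.16 for *S100a1*, 1.19 for *S100a11*, 2.61 for *S100a4* and 9.53 for *S100a8*, whose lowest value was in mouse 2281.

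*S100a8* and *S100a9*, the calprotectin subunits, were the members that differed most between genotypes. *S100a8* was at 9.06, 60.3 and 21.4 FPKM in HrasG12V mice 2276, 2278 and 2279 whereas WT mice 2277, 2280 and 2281 had 0.887, 1.89 and 0.198 FPKM. *S100a9* was at 10.1, 48.7 and 19.5 FPKM in the HrasG12V mice whereas the WT mice had 1.70, 1.49 and 0.478 FPKM. Both genes were therefore higher in each HrasG12V mouse than in any WT mouse, and both had the same order among HrasG12V mice, with mouse 2278 highest and mouse 2276 lowest. As ratios of means the differences were 30.5-fold for *S100a8* and 21.4-fold for *S100a9*, and on the scale of log2(FPKM + 0.1), which draws in low values, they were 4.77 and 4.17. Against the WT mean, mouse 2276 had 9.14-fold and 8.24-fold, mouse 2279 had 21.6-fold and 15.9-fold, and mouse 2278 had 60.8-fold and 39.9-fold more *S100a8* and *S100a9*. In rank, *S100a8* held place 8 or 9 among the 9 genes in each WT mouse and in mouse 2276, place 4 in mouse 2278 and place 5 in mouse 2279. In bulk tissue, more cells of a type and more RNA per cell cannot be told apart.

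Over the 9 genes, 4 did not overlap between genotypes, all with higher values in HrasG12V muscle: *S100a8*, *S100a9*, *S100a13* and *S100b*. Of the 13359 genes tested, 8.11% were higher and 10.4% lower without overlap. On the deposited scale the margin was wide for the calprotectin genes and narrow for the other two. *S100a13* was at 34.3, 17.3 and 15.3 FPKM in HrasG12V mice 2276, 2278 and 2279 against 13.1, 13.8 and 14.7 FPKM in WT mice 2277, 2280 and 2281. Its log2 difference was 0.59, and mouse 2276 had 2.47-fold the WT mean. Without mouse 2276 the difference was 0.23. With libraries rescaled to equal totals the 3 HrasG12V mice were alike, at 22.6, 21.6 and 19.9, against 13.4 to 15.1 in WT mice. *S100b* was at 3.69, 4.01 and 2.06 FPKM against 1.32, 2.01 and 1.62 FPKM, a log2 difference of 0.90. Its lowest HrasG12V value, in mouse 2279, lay just above its highest WT value, in mouse 2280.

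*S100a1* did not keep a direction among the HrasG12V mice. It was at 175 FPKM in mouse 2276, above all WT mice (91.9, 96.4 and 83.3 FPKM). Mice 2278 and 2279 had 71.2 and 65.2 FPKM, below all of them. The mean log2 difference of 0.05 was small beside the SD of 0.79 among HrasG12V mice. Without mouse 2276 it was -0.41. *S100a4* was at 22.6, 33.0 and 21.1 FPKM in HrasG12V mice 2276, 2278 and 2279 against 8.49, 13.3 and 22.1 FPKM in WT mice 2277, 2280 and 2281. For this gene only WT mouse 2281 reached into the HrasG12V range, and the log2 difference was 0.88 (0.54 without WT mouse 2277). *S100a6* was at 78.7, 53.8 and 35.7 FPKM against 37.1, 50.7 and 52.0 FPKM, with a log2 difference of 0.21. *S100a10* was at 88.6, 70.6 and 48.3 FPKM against 51.0, 56.2 and 66.8 FPKM (0.22 on the log2 scale), and *S100a11* at 107, 105 and 50.7 FPKM against 69.1, 80.4 and 67.4 FPKM (0.20). For *S100a6*, *S100a10* and *S100a11* alike, mice 2276 and 2278 were above every WT mouse and mouse 2279 was below every WT mouse on the deposited scale. Their log2 differences ranged from -0.07, 0.02 and 0.02 without mouse 2276 to 0.50, 0.46 and 0.56 without mouse 2279. With libraries rescaled to equal totals, mouse 2276 lay within the WT range for all 3 genes, and mouse 2279 did for *S100a6* and *S100a10*.

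**Figure D2:**
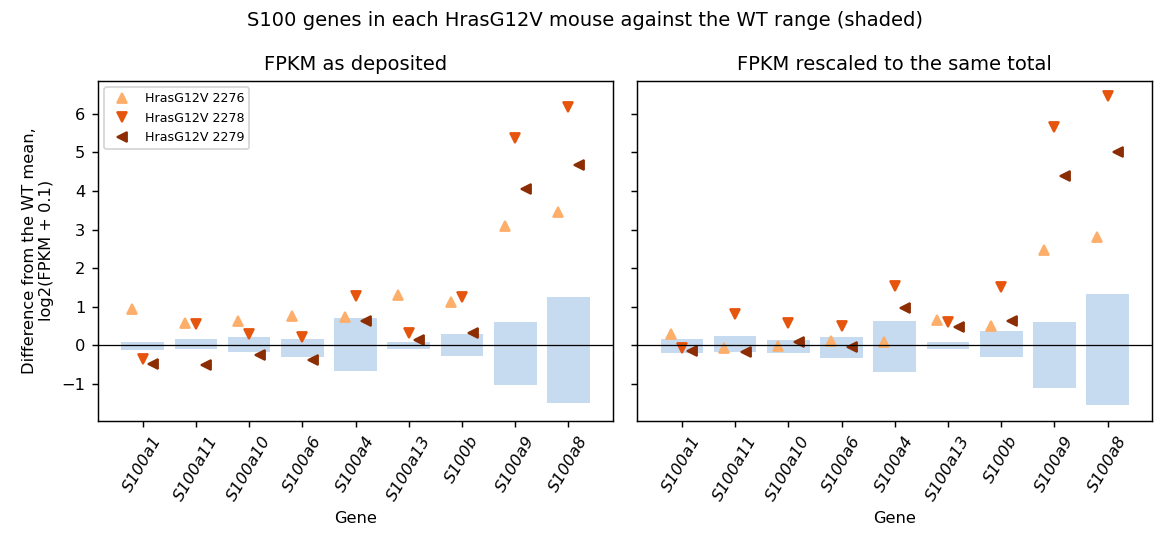
Difference of each HrasG12V mouse from the WT mean in log2(FPKM + 0.1) for the 9 S100 genes, with the range of the 3 WT mice shaded. The left panel uses FPKM as deposited and the right panel FPKM rescaled to the same total in each library. *S100a8* and *S100a9* stand above the WT range in all 3 mice in both panels, and the height of mouse 2276 at *S100a1*, *S100a6*, *S100a10* and *S100a11* shrinks in the right panel.

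Counted by mouse, 9 of the 9 genes were above every WT mouse in mouse 2276, 8 in mouse 2278 and 4 in mouse 2279, where another 4 were below every WT mouse. Of all genes tested, 43.1%, 31.7% and 33.7% were above every WT mouse in these libraries. Over the 9 genes, the median of the log2 differences to the mean of WT mice was 0.95, 0.55 and 0.14 in mice 2276, 2278 and 2279, against 0.04, -0.08 and -0.04 over all genes tested. Short transcripts differed in the same direction in mouse 2276. The 1906 genes tested whose longest transcript has at most 1484 bases, the length of the longest S100 transcript, had a median of 0.72 there, against -0.13 and -0.12 in mice 2278 and 2279. The 600 genes with at most 750 bases had a median of 0.35 in mouse 2276. The part of transcript length and of library scaling in the S100 values of mouse 2276 was not tested. When each library was rescaled to the same total FPKM, 5, 8 and 5 of the 9 genes were above every WT mouse in mice 2276, 2278 and 2279. Below every WT mouse were then 0 genes in mice 2276 and 2278 and 1 in mouse 2279. The same 4 genes did not overlap between genotypes. Rescaled *S100a1* was at 115 in mouse 2276, 89.0 and 84.8 in mice 2278 and 2279 and 81.7 to 105 in WT mice.

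Ratios of 2 genes within a library do not depend on its scaling. The ratio of *S100a8* to *S100a9* was 0.901, 1.24 and 1.10 in HrasG12V mice 2276, 2278 and 2279 and 0.522, 1.27 and 0.415 in WT mice 2277, 2280 and 2281, so that the subunits of calprotectin were near parity wherever they were abundant. The ratio of *S100a13* to *S100a1*, which share a start region, was 0.196, 0.243 and 0.234 in the HrasG12V mice and 0.142, 0.144 and 0.176 in the WT mice. These ranges did not overlap, although *S100a1* alone overlapped. *S100a6* to *S100a10* was 0.728 to 0.904 over all 6 mice, the steadiest of the ratios computed. *S100a10* to *Anxa2*, whose proteins join in a tetramer at membranes, was 1.43, 0.987 and 1.58 in HrasG12V mice and 1.30, 1.27 and 1.68 in WT mice, with overlap.

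**Figure D3:**
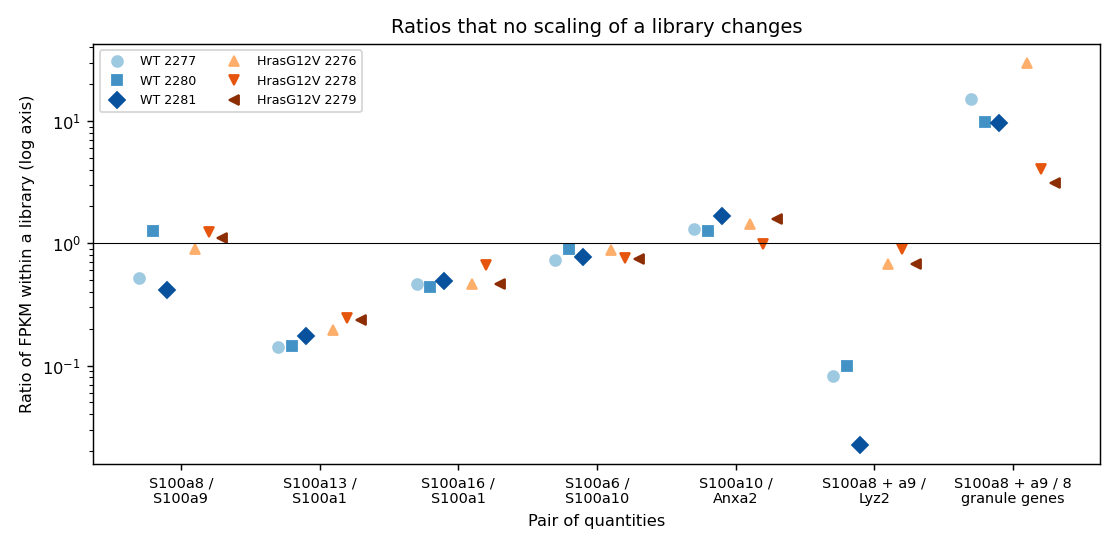
Ratios of FPKM within each library (log axis) for pairs of S100 genes and partners, 1 point per mouse. The ratio of *S100a13* to *S100a1* and that of the *S100a8* and *S100a9* sum to *Lyz2* separate the genotypes, and the last column, which rests on a subset of 8 granule genes taken after the values were seen, has mouse 2276 above and mice 2278 and 2279 below the WT mice. Against the whole neutrophil list, all 3 HrasG12V mice were above the WT mice (1.25 to 2.49 against 0.141 to 0.467, not plotted).

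The share of the calprotectin genes among S100 transcripts differed as well. *S100a8* and *S100a9* together were 0.943%, 1.07% and 0.219% of the summed FPKM of the 9 genes in WT mice 2277, 2280 and 2281. They were 3.61%, 23.5% and 14.7% in HrasG12V mice 2276, 2278 and 2279. *S100a1* held 27.0% to 33.5% in WT mice, 33.1% in mouse 2276 and 15.3% and 23.4% in mice 2278 and 2279. The summed FPKM was 275 to 316 in WT mice, 530 and 464 in mice 2276 and 2278 and 279 in mouse 2279.

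**Figure D4:**
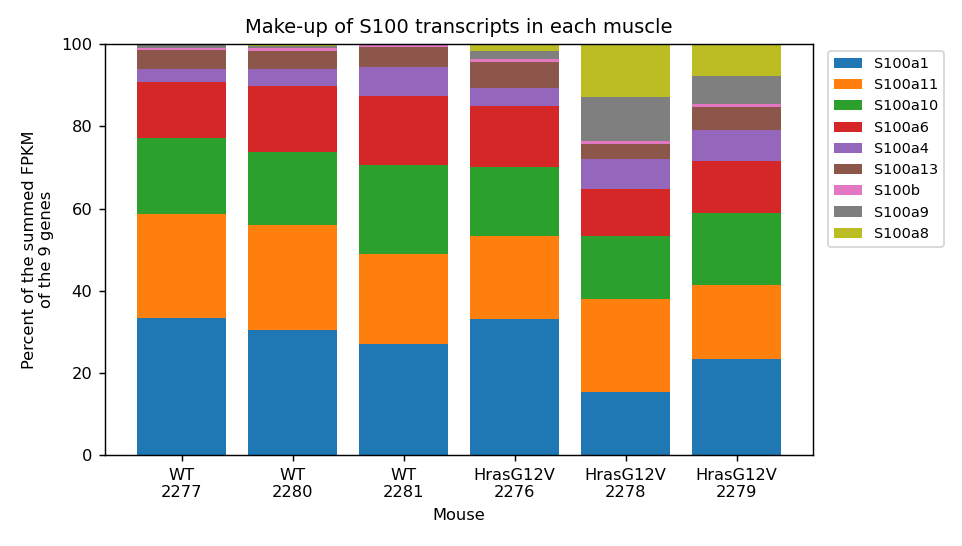
Share of each S100 gene in the summed FPKM of the 9 genes, in percent, in each of the 6 mice. The bands of *S100a8* and *S100a9* at the top are under 2% together in each WT mouse and reach 23.5% in HrasG12V mouse 2278.

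Neutrophil genes were set beside the calprotectin pair. Of 16 listed neutrophil genes 15 were found and 9 tested with limma on log2(FPKM + 0.1). Of these, 6 (*Ngp*, *Camp*, *Ltf*, *Retnlg*, *Csf3r* and *Il1b*) had a WT mean under 0.5 FPKM and passed the filter on low values through the HrasG12V mice alone, so a higher value was favoured by the filter. An unadjusted p below 0.05 in the higher direction was found for 4 genes, 3 of them among those 6, where 5.18% of all genes tested had one. Nothing is read from that count. After Benjamini-Hochberg adjustment over all genes tested 0 of the 9 passed 0.05, as against 8 of 13359 genes, or 0.0599%. *Retnlg*, a secreted protein of mature neutrophils, was at 1.505, 4.47 and 1.78 FPKM in HrasG12V mice 2276, 2278 and 2279 and between 0.0986 and 0.498 FPKM in the WT mice (log2 difference 2.69, SE 0.58, limma adjusted p = 0.342). *Cxcr2*, the chemokine receptor that draws neutrophils into tissue, was at 2.65, 3.58 and 2.41 FPKM against 1.62 to 1.83 FPKM (0.69, SE 0.20, limma adjusted p = 0.41). *Ngp*, a granule protein, was at 0.415, 9.42 and 4.60 FPKM against 0.0304 to 0.103 FPKM (4.08, SE 1.05, limma adjusted p = 0.382), and *Camp*, the cathelicidin precursor, had a log2 difference of 3.98 (SE 1.34, limma adjusted p = 0.449). *Mmp9* had the smallest difference of the 9 (0.15, SE 0.40).

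The HrasG12V mice were not alike in these genes. Summed over 8 genes of granule proteins (*Ngp*, *Camp*, *Ltf*, *Mmp8*, *Elane*, *Mpo*, *Prtn3* and *Ctsg*, a subset taken after the values were seen), the level was 26.8 and 13.2 FPKM in mice 2278 and 2279, 0.642 FPKM in mouse 2276 and 0.0703 to 0.345 FPKM in WT mice. In mouse 2276, 4 of the 8 genes were listed at 0, as were 4, 1 and 5 in WT mice 2277, 2280 and 2281. *S100a8* and *S100a9* together were 29.8 times this sum in mouse 2276, 4.07 and 3.09 times in mice 2278 and 2279 and 9.62 to 15.2 times in WT mice. This order rests on the subset. Over the whole list of 15 neutrophil genes, the sum of mouse 2276 (7.67 FPKM) lay within the WT range (4.80 to 7.87 FPKM), and the calprotectin pair was 2.49, 2.44 and 1.25 times the sum in mice 2276, 2278 and 2279 and 0.141 to 0.467 times in WT mice. Mice 2278 and 2279 also had the B and T cell transcripts given above, for example *Cd79a* at 26.4 and 20.9 FPKM against 0.161 in mouse 2276 and 0.120 to 0.367 in WT mice. In mouse 2276 the calprotectin genes and the B and T cell sum were above the WT range. So were *Retnlg*, *Cxcr2*, *Il1b*, *Ngp* (0.415 FPKM), *Camp* (0.128 FPKM) and *Mmp8* (0.0621 FPKM). *Lcn2* (1.23 FPKM against 1.39 to 3.56 FPKM) and *Padi4* (0.0769 FPKM against 0.0815 to 0.112 FPKM) were below every WT mouse. The other neutrophil genes found, *Mmp9* and *Csf3r* among them, lay within the WT range. With libraries rescaled to equal totals the B and T cell sum of mouse 2276 and its *Cxcr2* and *Il1b* lay within the WT range. *S100a8*, *S100a9*, *Retnlg*, *Ngp*, *Camp* and *Mmp8* stayed above it, and *Lcn2* and *Padi4* stayed below it. With mouse 2276 as the only HrasG12V mouse, an alternative chosen after the data were seen, the log2 differences of *S100a8* and *S100a9* from the WT mean were 3.45 and 3.10. The part of blood, lymphoid or other tissue in the S100 values of mice 2278 and 2279 was not tested.

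**Figure D5:**
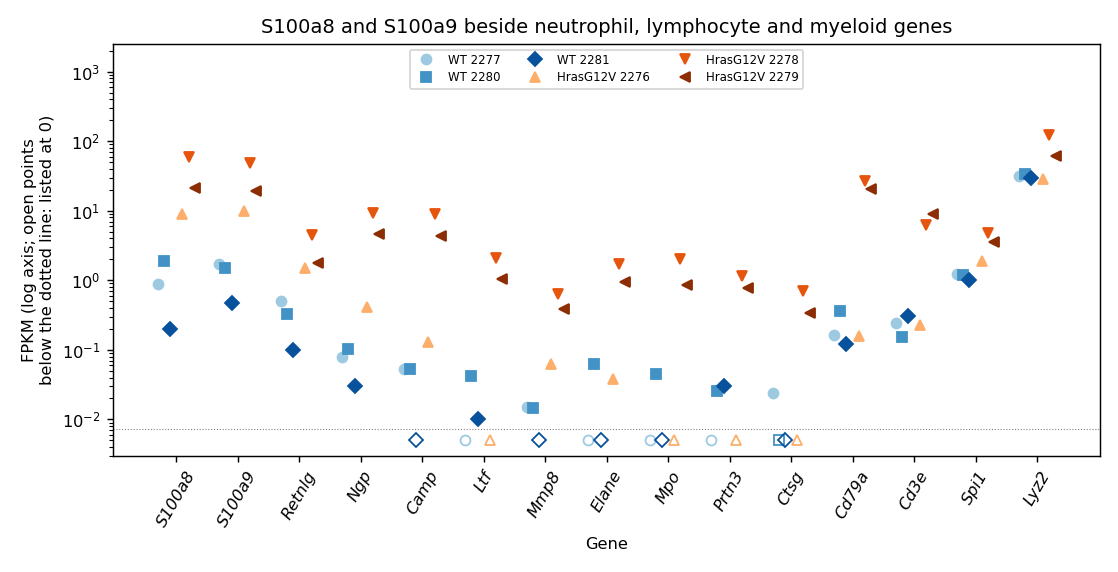
FPKM (log axis) of *S100a8* and *S100a9*, of *Retnlg* and 8 granule protein genes of neutrophils, of the lymphocyte genes *Cd79a* and *Cd3e* and of the myeloid genes *Spi1* and *Lyz2*, in 3 WT (blue) and 3 HrasG12V mice (orange and brown). Open points stand for genes listed at 0. In mouse 2276 *S100a8*, *S100a9*, *Retnlg*, *Ngp*, *Camp*, *Mmp8* and *Spi1* lie above all WT mice. *Ltf*, *Mpo*, *Prtn3* and *Ctsg* are listed at 0 in mouse 2276, and each is also at 0 in a WT mouse.

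Other blood and myeloid genes gave mixed values. Of 10 macrophage genes 9 were tested, 1 of which, *C1qa*, had an unadjusted p below 0.05 in the higher direction, where 5.18% of all genes tested did (log2 difference 0.59, SE 0.24, limma adjusted p = 0.488), and the median over the 9 was 0.43. *Lyz2*, the lysozyme of macrophages and neutrophils, was at 28.1, 122 and 60.6 FPKM in HrasG12V mice 2276, 2278 and 2279 and 29.9 to 34.1 FPKM in WT mice. The sum of *S100a8* and *S100a9* per *Lyz2* was 0.680, 0.892 and 0.675 in HrasG12V mice and 0.0226 to 0.0991 in WT mice, without overlap. Among myeloid transcription factors, *Spi1*, which encodes PU.1, was at 1.90, 4.75 and 3.61 FPKM against 0.994 to 1.23 FPKM (log2 difference 1.41, SE 0.34, limma adjusted p = 0.377). *Cebpa* was at 5.28, 12.1 and 9.96 FPKM against 2.89 to 5.11 FPKM (1.12, SE 0.35, limma adjusted p = 0.433). Both were above the WT range in all 3 HrasG12V mice on the deposited scale, with unadjusted limma p-values of 0.00488 and 0.0170. With libraries rescaled to equal totals, mouse 2276 lay within the WT range for both, at 1.25 against 0.975 to 1.32 for *Spi1* and 3.48 against 2.84 to 5.58 for *Cebpa*. *Cebpb* and *Cebpd* overlapped between genotypes. Erythroid genes, which mark blood left in the tissue, summed to 1972, 1484 and 599 FPKM in mice 2276, 2278 and 2279 and 657 to 764 FPKM in WT mice, and 0 of 6 tested had an unadjusted p below 0.05.

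Of 9 receptors and signalling genes through which extracellular calprotectin acts, all tested, 2 were higher (*Cd14* and *Myd88*) and 1 lower (*Nptn*) without overlap, where 8.11% and 10.4% of all genes tested were. An unadjusted p below 0.05 was found for 1 in the higher and 2 in the lower direction, against 5.18% and 4.99% of all genes tested. *Myd88*, the adaptor of TLR4, was at 5.86, 6.87 and 5.84 FPKM in the HrasG12V mice and 4.84 to 5.05 FPKM in WT mice, and overlapped once libraries were rescaled to equal totals. *Tlr4* was at 1.37, 3.10 and 3.16 FPKM in HrasG12V mice 2276, 2278 and 2279 and 1.54 to 2.75 FPKM in WT mice (log2 difference 0.12, SE 0.38). *Ager*, the receptor for advanced glycation end products, was at 0.229, 0.784 and 1.19 FPKM against 0.299 to 0.464 FPKM (0.67, SE 0.61). Its WT mean of 0.36 FPKM was under the filter limit of 0.5 FPKM, so it was tested through the HrasG12V mice alone. *Cd14*, the coreceptor of TLR4, was at 2.65, 2.11 and 1.78 FPKM against 1.39 to 1.60 FPKM (0.51, SE 0.21, limma adjusted p = 0.49). *Cd36*, a fatty acid receptor that also binds calprotectin, was at 178, 201 and 291 FPKM against 286 to 509 FPKM (-0.84, SE 0.33, limma adjusted p = 0.483), and *Nptn*, a receptor for S100A8, at 34.0 to 37.2 FPKM against 45.5 to 52.2 FPKM (-0.41, SE 0.17, limma adjusted p = 0.487).

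Partners of the other S100 proteins gave no call. Among 9 annexin and *Ahnak* genes 0 had an unadjusted limma p below 0.05, with 0 past the adjusted p, and the median log2 difference was 0.07. *Anxa2* was at 61.8, 71.5 and 30.5 FPKM in HrasG12V mice 2276, 2278 and 2279 and 39.2 to 44.3 FPKM in WT mice, a difference of 0.32 (SE 0.34). It was highest in mouse 2278 and lowest in mouse 2279. Of 6 targets of S100A1 in calcium handling and the sarcomere, *Atp2a1* was listed at 0 in all libraries, and 0 of the other 5 had an unadjusted p below 0.05. *Ryr1* was at 330, 254 and 578 FPKM against 432 to 500.5 FPKM (-0.38, SE 0.36), and *Ttn* at 151 to 176 FPKM against 193 to 239 FPKM (-0.46, SE 0.22, limma adjusted p = 0.542). *Atp2a2* alone had a positive difference, at 147, 104 and 246 FPKM against 29.1 to 162 FPKM (0.91, SE 0.68). *Casq1*, the most abundant, was at 4542, 2745 and 1545 FPKM against 2946 to 4299 FPKM (-0.32, SE 0.52). *Myh9*, the nonmuscle myosin that S100A4 binds, was at 16.3, 29.5 and 24.5 FPKM against 15.2 to 18.6 FPKM (0.42, SE 0.25). *Fgf1*, exported with S100A13, was at 13.5, 6.74 and 6.28 FPKM against 7.79 to 13.3 FPKM (-0.31, SE 0.35).

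Markers of the cells that make the other members were compared with them. Of 8 Schwann cell genes 3 had an unadjusted p below 0.05, all higher, where 5.18% of all genes tested did: *Ngfr* (log2 difference 1.53, SE 0.37, limma adjusted p = 0.378), *Mag* (1.12, SE 0.31, limma adjusted p = 0.396) and *Pmp22* (0.99, SE 0.38, limma adjusted p = 0.481). Their sum over the 8 genes was 234, 535 and 637 FPKM in HrasG12V mice 2276, 2278 and 2279 and 140, 381 and 177 FPKM in WT mice 2277, 2280 and 2281. *S100b* ranked the WT mice as this sum did, but not the HrasG12V mice, either as deposited or with libraries rescaled to equal totals. After rescaling, *Ngfr* and *Mag* in mouse 2276 lay within the WT range. Of 6 adipocyte genes 1, *Cfd*, had an unadjusted p below 0.05 (2.53, SE 0.81, limma adjusted p = 0.435), and *Fabp4* made up most of the summed level, at 713 to 769 FPKM against 395 to 678 FPKM. *Adipoq*, *Plin1*, *Cidec* and *Lep* overlapped between genotypes, and with rescaled libraries so did *Fabp4* and *Cfd*. Of 9 fibroblast genes 0 had an unadjusted p below 0.05, and their sum of 893, 3547 and 984 FPKM in HrasG12V mice overlapped that of 2059 to 4635 FPKM in WT mice. *S100a4* and this sum did not rank the mice alike, since the sum was highest in WT mouse 2280. Of 7 tendon and cartilage genes 5 were tested and 4 had an unadjusted p below 0.05 in the lower direction, where 4.99% of all genes tested did, among them *Tnmd* (-1.88, SE 0.54, limma adjusted p = 0.401) and *Col2a1* (-1.72, SE 0.53, limma adjusted p = 0.432). With rescaled libraries *Tnmd*, *Col2a1* and *Mkx* overlapped between genotypes, as *Thbs4* did on the deposited scale. Of 5 endothelial genes, *Cdh5* (-0.66, SE 0.17, limma adjusted p = 0.382) and *Tie1* (-0.58, SE 0.15, limma adjusted p = 0.382) had an unadjusted p below 0.05. Over all partner and marker lists 102 genes were tested, of which 19 (18.6%) were higher and 8 (7.84%) lower at an unadjusted p below 0.05, with 0 past the adjusted p. Of the 19, 10 had a WT mean under 0.5 FPKM and passed the filter through the HrasG12V mice alone, and the other 9 did not. The split between directions was not stable. After rescaling, 13 of 15 called genes were higher, and without HrasG12V mouse 2278, 7 of 17 were.

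The S100 genes outside the 9 mostly had low FPKM in this muscle. Of 9 such genes *S100a16* alone was abundant, at 80.7, 47.6 and 30.5 FPKM in HrasG12V mice 2276, 2278 and 2279 and 40.9 to 42.4 FPKM in WT mice (log2 difference 0.22, SE 0.35, limma adjusted p = 0.879). *S100a3* passed the filter on low values through WT mouse 2280, where it was at 2.38 FPKM against 0.0792 to 0.429 FPKM in the other 5 mice. The rest were below 1 FPKM in every library, among them *S100a7a*, the neighbour of *S100a8*, at 0.152 to 0.728 FPKM. Along the cluster, *S100a8* and *S100a9* thus stood beside a gene with low values in both genotypes. Of 7 S100 fused-type genes of the epidermis 6 were found and 0 passed the filter, and their summed level was 2.17 FPKM in WT mouse 2280 and at most 0.0219 FPKM in the other mice.

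The genes most like each S100 gene were found by the root mean square difference of centred log2 values over the 6 libraries, among 12178 genes with a mean of at least 1 FPKM. Nearest to the mean of *S100a8* and *S100a9* were *Ngp* (0.81), *Ucp1* (0.87) and *Vpreb3* (0.92). *S100a8* and *S100a9* differed from each other by 0.53, a distance between the genes and not to their mean. *Ngp*, *Ucp1* and *Vpreb3* each had a WT mean under 1 FPKM, so they entered through the HrasG12V mice, where the pair is also high. Their nearness was therefore favoured by the filter and by the selection of the pair, and nothing is read from it. *Ngp* is a neutrophil granule gene, *Ucp1* encodes the uncoupling protein of brown fat and *Vpreb3* belongs to developing B cells. The other members had much nearer neighbours, but they also varied less between mice, and the distance is not scaled to spread. *S100a11* was nearest to *Anxa2* (0.10) and *Ly6a* (0.10), and *S100a13* was near *Nans* (0.04) and the ribosomal protein gene *Rpl14* (0.05). *S100a1* was nearest to *Rnmtl1* (0.05) and *Tarbp2* (0.05), and *S100b* to *Tuba1b* (0.11) and *Cfl1* (0.15), which encode a tubulin and cofilin. *S100a4* had no close neighbour, with *E2f2* (0.21) first. *S100a10* was nearest to *Ifi35* (0.07), and for *S100a6* it stood itself at place 16 (0.12). These values describe 6 libraries that share their scaling, so that genes alike in mouse 2276 come out as near.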

How the data were processed

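The members and gene lists were chosen with earlier results of these data known. Per the labels and the study's methods, a stranded mRNA kit and single-end sequencing were used on 6 gastrocnemius muscles, and the authors ran TopHat, Cufflinks and Cuffnorm to obtain FPKM per gene. The submitters' processing notes name GRCm38 (mm10), while neither tool versions nor the annotation is given in the sources used here. The deposited FPKM were joined by gene symbol and transformed as log2(FPKM + 0.1). Genes with a mean of at least 0.5 FPKM (13359) were compared between genotypes in limma 3.58.1 under R 4.3.3, using moderated variances that follow mean level and no covariate, with Benjamini-Hochberg adjustment, two-sided, and the limit was 0.05. The fit was tested on simulated data. Low FPKM showed no steps of whole reads (the fullest interval of 0.02 in log2 ratio held 1.01% to 4.5% of 888 low genes per pair of libraries), so no count test was run.

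Of 145 list genes 142 were found among the symbols, *Adgre1* as *Emr1*. Genes named from a list are those with the highest or lowest difference, an unadjusted p below 0.05, the highest level or a listed 0, with a few added for their role after the values were seen. Some genes most like a member are not reported here. Positions and transcript lengths came from GENCODE vM21 on GRCm38 and promoters from RefSeq on GRCm38.p6. No protein sequence was used. Alternatives were other pseudocounts, filters, scalings and weights, robust moderation and leaving out each mouse. Tables were made with pandas 2.3.3 and numpy 2.4.6 under Python 3.11.15, and figures with matplotlib 3.10.9. The labels do not give sex, litter or batch, and mice are the replicates.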

Additional observations from a re-analysis of the deposited data

How the results depend on the processing

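The differences of the 9 S100 genes were recomputed under 17 alternatives. Of these, 3 (no filter, a filter at a mean of 1 FPKM and robust moderation) cannot change a difference of means. Under the other 14 the differences moved by less than the SD between mice in 121 of 126 cases. Leaving out 1 of 3 mice cannot move a difference by as much as that SD. The cases with a mouse left out were therefore fixed in advance, and no stability is read from them. For *S100a8* and *S100a9* the log2 difference lay between 3.10 and 5.43. With HrasG12V mouse 2276 alone against the WT mice, chosen after the data were seen, it was 0.95 for *S100a1*, 0.77 for *S100a6*, 3.10 for *S100a9*, 0.62 for *S100a10* and 1.30 for *S100a13*. The sign changed in 5 cases, 4 for *S100a1* (-0.35 with array weights, -0.01 without WT mouse 2281, -0.41 without mouse 2276 and -0.11 with each library's trend over transcript length removed, chosen after the data were seen) and 1 for *S100a6* (-0.07 without mouse 2276). These members have no test.

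Of all genes tested, 1358 had an unadjusted limma p below 0.05. The number was 712 after rescaling libraries to equal FPKM totals, 3042 with array weights and 606 to 3979 with each mouse left out (606 without WT mouse 2281, 635 without 2277, 709 without 2280 and 3979 without HrasG12V mouse 2276). An adjusted limma p below 0.05 was found for 8 genes, for 5 with a pseudocount of 1, 572 with array weights and 7 to 1291 with each mouse left out, the highest without mouse 2276. The 27 partner and marker genes at an unadjusted p below 0.05 became 15 after rescaling and 15 to 42 with each mouse left out. The 19 higher ones became 34 with array weights and 7 to 35 with each mouse left out, the lowest without mouse 2278 and the highest without mouse 2276. For the other S100 genes 0 were called under every alternative run. No paired analysis was possible because the labels do not say which mice came from the same litter. No read counts were used, so the precision that depth gives to each FPKM was not computed.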
